A study of Mus musculus with 12 samples.

Results

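The 9 genes described here encode the STAT transcription factors Stat2, Stat3, Stat5a, Stat5b and Stat6 and the Janus kinases Jak1, Jak2, Jak3 and Tyk2. They were chosen by gene symbol, matched through the GENCODE mouse annotation to the identifiers of the deposited count tables, and all 9 were found among the 54446 genes counted. The remaining STAT genes were not analysed here.

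The study measured which transcripts were held by YTHDF2, a reader protein that binds N6-methyladenosine (m6A) in RNA and promotes decay of its targets, in CD11b+ myeloid cells sorted from tumors grown from MC38, a colon carcinoma line of the mouse. The 12 libraries formed 4 groups of 3: Input and YTHDF2 immunoprecipitate (IP) from untreated tumors (Ctrl), and the same fractions from tumors collected 3 days after a dose of 20 Gy (IR). Mice of every group were labelled wild type, which the methods give as Ythdf2 f/f, were 8 to 10 weeks old and of both sexes, and 5 mice were pooled for each replicate. The study's methods call the replicates technical, so p-values measure the spread between pools. The methods take the Input and the IP from the same lysate. That an IP and the Input of the same number form such a pair was assumed from the numbering. An IP with a control antibody was not analysed here, so a ratio of IP to Input gives the share a transcript took of the IP relative to its share of the Input, and not an absolute amount bound.

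JAKs are tyrosine kinases that sit on the cytoplasmic tails of cytokine receptors. When a cytokine brings receptor chains together the JAKs phosphorylate each other, the receptor and the STAT proteins, which then dimerize, enter the nucleus and bind DNA. In myeloid cells the pathway carries the signals of interferons, interleukin 6, interleukin 10, interleukin 4 and the colony stimulating factors, and STAT3, STAT5 and STAT6 are known for their part in the suppressive programs of tumor-infiltrating myeloid cells.

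In mm10, Stat2 (chr10:128270559-128292849, plus strand) and Stat6 (chr10:127642986-127660957, plus strand) lay on chromosome 10. Stat5b (chr11:100780731-100850724, minus strand), Stat5a (chr11:100859351-100885169, plus strand) and Stat3 (chr11:100885098-100939540, minus strand) followed one another on chromosome 11, and the exons of Stat5a and Stat3 overlapped tail to tail by 72 bases on opposite strands. Jak1 (chr4:101152367-101265282, minus strand), Jak2 (chr19:29251828-29313080, plus strand), Jak3 (chr8:71676296-71690575, plus strand) and Tyk2 (chr9:21104068-21131243, minus strand) were each on a chromosome of their own. The genes had between 16 and 28 merged exon blocks. Counts took in all exons of a gene.

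Promoters were read for the letters that STAT complexes are known to bind, because the members are themselves part of an interferon and cytokine response. Of 32851 RefSeq promoters of 300 bases around the transcription start (GRCm38.p6), 8.30% held TTCNNNGAA, the letters bound by STAT dimers, and 8.56% held GAAANNGAA, the core of the interferon response element, on either strand. Among the 11 promoters of the 9 members, 0 held the first and 2 held the second. These were the promoters of Stat2 (chr10:128270248-128270547) and Jak3 (chr8:71676133-71676432), which are shown with the matching letters in capitals. The match in Stat2 lies on the strand opposite to the one printed. Such a match is a description of letters within this window.

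Stat2: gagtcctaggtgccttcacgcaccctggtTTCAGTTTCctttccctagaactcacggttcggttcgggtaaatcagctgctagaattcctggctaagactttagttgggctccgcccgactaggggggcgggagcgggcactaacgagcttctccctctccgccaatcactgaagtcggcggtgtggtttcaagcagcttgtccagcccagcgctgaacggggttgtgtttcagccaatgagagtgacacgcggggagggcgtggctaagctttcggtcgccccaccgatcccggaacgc

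Jak3: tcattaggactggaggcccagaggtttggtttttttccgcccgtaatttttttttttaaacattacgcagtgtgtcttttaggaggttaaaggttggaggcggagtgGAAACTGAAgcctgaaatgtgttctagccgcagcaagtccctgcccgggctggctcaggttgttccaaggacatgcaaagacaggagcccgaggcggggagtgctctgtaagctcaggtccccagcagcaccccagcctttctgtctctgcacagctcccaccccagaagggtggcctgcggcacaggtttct

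Counts on genes ran from 27852948 to 42382532 per library, and 3 counts corresponded to 0.0708 to 0.108 CPM, the count of a gene relative to the size of its library. The least counted member library was Stat5a in the Ctrl IP with 491 counts, so all 9 genes were far above this floor in all 12 libraries. Between 41.8% and 54.1% of uniquely placed reads fell on no gene in the IP libraries, against 24.6% to 27.0% in the Input libraries. Of the 8 myeloid markers none was under 1 CPM in the Inputs, while 5 of 6 T cell markers and 5 of 6 NK cell markers were. So were 4 of 5 tumor epithelium markers, 4 of 5 fibroblast markers, 2 of 4 endothelium markers and 0 of 5 B cell markers. In the Ctrl Input Epcam was at 4.72, Col1a1 at 6.38 and Pecam1 at 25.9 CPM. Ythdf2 itself was at 59.1 ± 0.618 CPM in the Ctrl Input and 52.5 ± 3.91 CPM in the IR Input (mean ± SD, n = 3 in each).

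The levels of the members were compared per kilobase of merged exon, in CPM scaled by TMM over all 12 libraries. In the Ctrl Input Jak2, the kinase of the colony stimulating factor and interferon gamma receptors, was highest at 76.8 ± 1.52 CPM per kb (SD, n = 3). Stat6, the interleukin 4 transducer, followed at 35.6 ± 1.40, then Jak1 at 25.9 ± 0.681 and Tyk2 at 24.2 ± 1.19 CPM per kb, both kinases of the type I interferon receptor. Stat2, which joins the interferon-induced complex with Irf9, stood at 15.4 ± 0.606 CPM per kb. Stat5b at 14.1 ± 0.482 and Stat3 at 13.7 ± 0.195 CPM per kb could not be ordered, since their libraries overlapped. Stat5a at 6.35 ± 0.449 and Jak3, the kinase of the common gamma chain, at 4.78 ± 0.446 CPM per kb were lowest. All other neighbours in this order did not overlap.

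The order was much the same after IR. In the IR Input Jak2 was at 78.9 ± 1.41 and Stat6 at 35.2 ± 0.497 CPM per kb, Stat3 and Stat5b again overlapped, and Jak3 at 6.17 ± 0.461 stood above Stat5a at 5.29 ± 0.170 CPM per kb without overlap, the reverse of their Ctrl Input order. In the IP libraries Jak2 was also highest, at 48.4 ± 0.650 CPM per kb in Ctrl and 45.8 ± 2.06 in IR, and Stat5a was lowest, at 2.49 ± 0.0664 and 3.32 ± 0.709 CPM per kb. In the IR IP Jak3 and Stat5a overlapped.

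**Figure D1:**
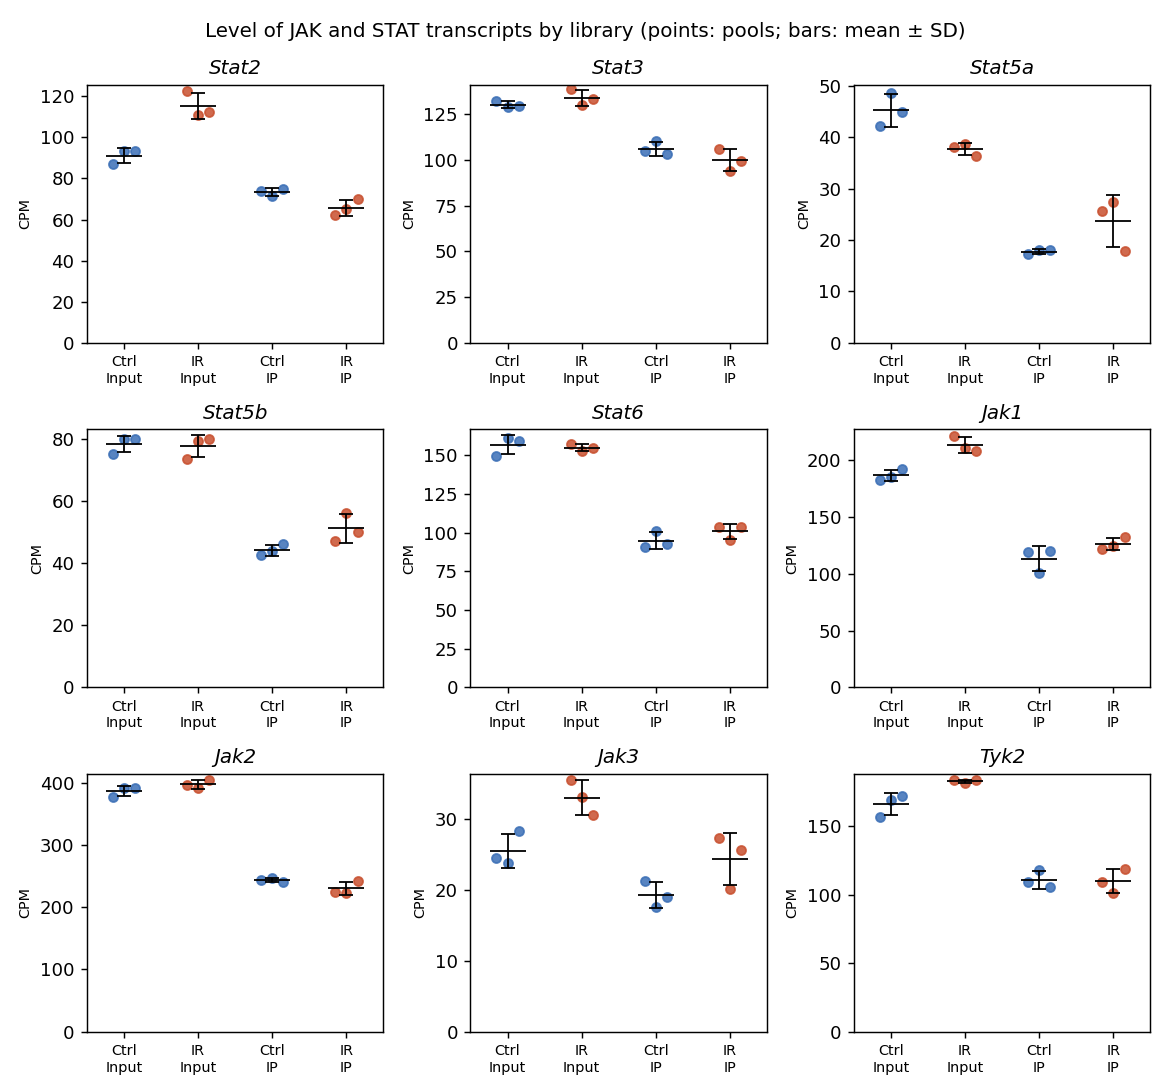
CPM (vertical axes, each from 0, TMM scale of all 12 libraries) of the 9 genes in Ctrl (blue) and IR (red), Input and YTHDF2 IP; points are pools and bars the mean ± SD of 3. In each gene the mean of the IP is below that of the Input in both conditions, and Stat5a in the IR IP spreads from 17.9 to 27.4 CPM.

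The comparison of IP with Input in Ctrl asked which transcripts YTHDF2 held beyond their abundance. None of the members was enriched. All 9 took a smaller share of the IP than of the Input, with a median log2 change of -0.55 and a range from -1.23 (Stat5a) to -0.18 (Stat3). Over all 17416 genes tested, 34.6% were called lower and 34.1% higher, and the median was 0.02. Calls came from the quasi-likelihood F test of edgeR with a Benjamini-Hochberg correction taken over all genes tested. With it all 9 members were called lower, and by DESeq2 as well, where 33.7% of all genes were called lower. Since all 9 changes were negative, none could be called higher at any threshold. Each comparison was scaled on its own libraries, which adds 0.12 to the log2 ratio of IP to Input given by the CPM values printed here, in Ctrl as in IR.

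Stat5a, a transducer of granulocyte-macrophage colony stimulating factor, was at 42.3, 48.7 and 45.0 CPM in the Ctrl Inputs and 17.2, 18.1 and 18.0 CPM in the Ctrl IPs. The IP libraries all lay far below the Inputs, and the log2 change was -1.23 ± 0.09 (SE), with an edgeR adjusted p of 6.98e-10. Stat5b, its close relative, had a log2 change of -0.71 ± 0.06 and an edgeR adjusted p of 1.87e-08. Stat5b levels were 75.2, 79.8 and 79.8 CPM in the Inputs and 42.4, 43.8 and 46.0 CPM in the IPs. The transcripts of the pair are similar in part: 8.21% of the 50-base windows of Stat5a were also found in Stat5b and 10.98% of those of Stat5b in Stat5a, and no other members shared a window with each other.

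Stat6 was at 157 ± 6.16 CPM in the Ctrl Input and 94.7 ± 5.43 CPM in the Ctrl IP (SD, n = 3), a log2 change of -0.61 ± 0.05. Jak1 went from 187 ± 4.92 to 114 ± 10.8 CPM (-0.60 ± 0.06), Jak2 from 386 ± 7.66 to 243 ± 3.27 CPM (-0.55 ± 0.04) and Tyk2 from 166 ± 8.19 to 111 ± 6.22 CPM (-0.46 ± 0.05). The edgeR adjusted p of these genes was at most 4.96e-07. For Tyk2, 8.07% of the exon bases are shared with an antisense gene, 1700084C06Rik, and the strand setting of the counting is not given in the sources used here.

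Stat2, Stat3 and Jak3 differed least between the fractions. Stat2 was at 87.0, 93.1 and 93.2 CPM in the Ctrl Inputs and 74.0, 71.4 and 75.1 CPM in the Ctrl IPs (-0.19 ± 0.06, edgeR adjusted p = 0.00574). Stat3, the transducer of interleukin 6 and interleukin 10, was at 130 ± 1.86 and 106 ± 3.62 CPM (-0.18 ± 0.05, edgeR adjusted p = 0.00474). Jak3 was at 25.6 ± 2.39 and 19.3 ± 1.83 CPM (-0.28 ± 0.11, edgeR adjusted p = 0.0254), and 7.55% of its exon bases are shared with Insl3 on the same strand. These 3 calls were the fragile ones. When protein-coding nuclear genes alone were fitted, their values were -0.09, -0.08 and -0.18 and none passed. Stat2 also failed without replicate 2 (-0.15), Stat3 without replicate 1 (-0.13) or 3 (-0.14), and Jak3 without replicate 2 (-0.26) or 3 (-0.18).

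**Figure D2:**
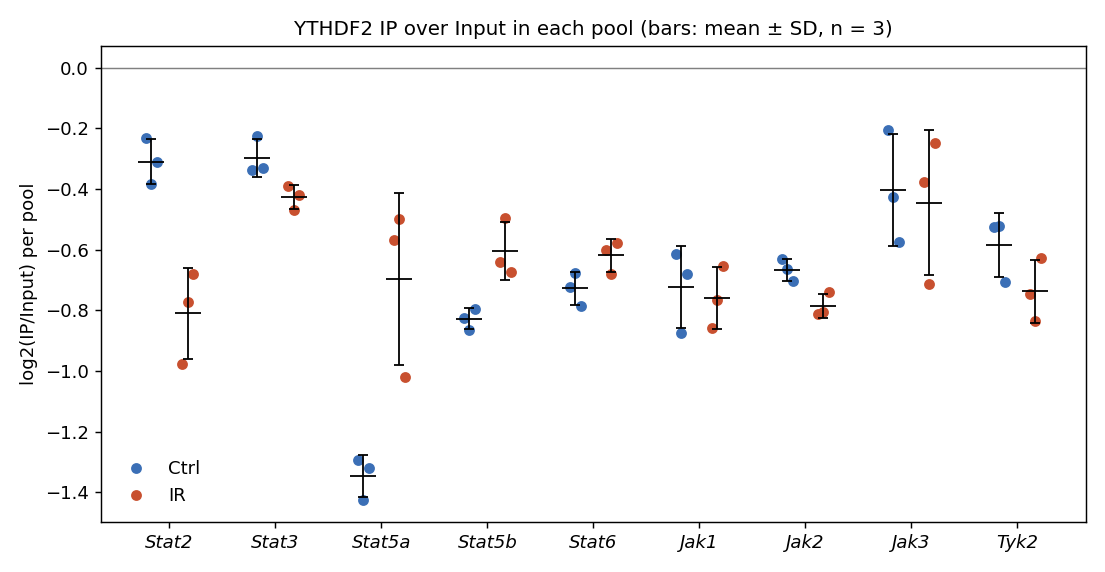
log2 of IP over Input CPM in each pool (vertical axis, prior count 2, TMM scale of all 12 libraries) for the 9 genes in Ctrl (blue) and IR (red), with the mean ± SD of 3 pools. All 54 ratios are below 0. The IR pools lie below the Ctrl pools for Stat2, Stat3 and Jak2, above them for Stat5a and Stat5b, and overlap them for the other 4 genes.

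After IR the members again lay below their Input share. In the fit of the IR libraries 8 of 9 were called lower and 0 higher, beside 30.4% lower and 32.1% higher among 18650 genes, with a member median of -0.55 against 0.10 for all genes. By DESeq2 8 members were lower as well, where 29.8% of all genes were called lower. The values ran from -0.69 ± 0.07 for Stat2 to -0.30 ± 0.06 for Stat3. Jak3, at -0.31 ± 0.13, was not called (edgeR adjusted p = 0.0601). Stat3 was not called without replicate 2 (-0.21), without replicate 3 (-0.23) or with library size alone (-0.15, edgeR adjusted p = 0.0652). Jak3 was called with no filter on low counts (-0.45, edgeR adjusted p = 8.93e-04) and in the fit of all 12 libraries (-0.37, edgeR adjusted p = 0.0147). In each of the 9 genes the 3 IP libraries lay below the 3 Inputs in both conditions. Of all genes tested, 37.1% lay wholly below their Inputs in Ctrl and 35.8% wholly above, and in IR the shares were 34.5% and 34.9%.

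The change of the ratio with IR was tested itself, as an interaction over all 12 libraries. Of the 9 members, 1 ratio rose (Stat5a) and 1 fell (Stat2), where 6.28% of 20720 genes were called higher and 13.9% lower. The member median was -0.02, against -0.08 for all genes. Scaling by library size alone moved the median of all genes to 0.23, and the share of higher calls from 31.1% to 76.5% of those called, so the direction of small changes here depends on the scaling. The ratios per pool of IR and Ctrl did not overlap for 5 members, lower in IR for Stat2, Stat3 and Jak2 and higher for Stat5a and Stat5b, where 22.6% of all genes lay wholly lower and 13.2% wholly higher. Of these 5 genes Stat2 and Stat5a passed the test.

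Stat2 was at 122, 111 and 112 CPM in the IR Inputs and 62.3, 65.0 and 70.0 CPM in the IR IPs. Against Ctrl the Input values were all higher and the IP values all lower on this scale, while on the scale of the IP comparison alone the IP groups overlapped. The log2 ratio per pool was -0.23, -0.38 and -0.31 in Ctrl and -0.97, -0.77 and -0.68 in IR. The interaction was -0.48 ± 0.09 (edgeR adjusted p = 5.92e-04). It remained negative when each replicate was left out, from -0.51 to -0.34, but with library size alone it was -0.16 and did not pass (edgeR adjusted p = 0.220).

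Stat5a was at 38.1, 38.7 and 36.4 CPM in the IR Inputs and 25.7, 27.4 and 17.9 CPM in the IR IPs. The third IP pool was at the Ctrl IP level and the other two were above it. The log2 ratio per pool was -1.29, -1.42 and -1.32 in Ctrl and -0.57, -0.50 and -1.02 in IR. The interaction was 0.70 ± 0.17 (edgeR adjusted p = 0.00627). It was 0.69 without replicate 1 (edgeR adjusted p = 0.0597) and 0.60 without replicate 2 (edgeR adjusted p = 0.0989), both past no threshold, and 0.88 without replicate 3 (edgeR adjusted p = 0.00322).

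For the other 7 members the interaction did not pass. Stat5b was at 0.25 ± 0.10 (edgeR adjusted p = 0.105), Stat6 at 0.13 ± 0.08, Stat3 at -0.10 ± 0.08, Tyk2 at -0.13 ± 0.09, Jak2 at -0.09 ± 0.06, Jak1 at -0.02 ± 0.09 and Jak3 at -0.01 ± 0.18. Stat5b passed under 5 other settings, among them DESeq2 (0.31, DESeq2 adjusted p = 0.0196). Stat6 passed with library size alone (0.44, edgeR adjusted p = 4.55e-04) and with at least 10 counts in every library (0.24, edgeR adjusted p = 0.0249). The signs of Stat3, Jak1, Jak2, Jak3 and Tyk2 turned with library size alone, under which Jak1 (0.30, edgeR adjusted p = 0.0176) and Jak2 (0.22, edgeR adjusted p = 0.00888) passed and 13.8% of all genes were called higher and 4.23% lower.

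In the Input, the comparison of IR with Ctrl gave the change in transcript abundance. Stat2, Jak1 and Jak3 rose and Stat5a and Stat6 fell, 3 and 2 of 9, where 21.0% of 16914 genes were called higher and 23.9% lower. The median of the members was -0.04, and that of all genes 0.01. The changes were modest, and none reached 2-fold. In this comparison the scale of its own libraries takes 0.08 from the log2 change given by the CPM values printed here. In bulk samples fewer cells of a type and less RNA per cell cannot be told apart.

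Jak3 was at 24.6, 23.8 and 28.3 CPM in the Ctrl Inputs and 35.5, 33.1 and 30.5 CPM in the IR Inputs, and rose by 0.29 ± 0.07 on the log2 scale (edgeR adjusted p = 0.00203). Stat2 rose by 0.26 ± 0.04 (edgeR adjusted p = 1.22e-05). On the scale of this comparison the IR libraries lay wholly above the Ctrl libraries for 4 members, Stat2, Jak3, Jak1 and Tyk2. They lay wholly below for 4, Stat5a, Stat5b, Stat6 and Jak2, where 25.4% of all genes lay above and 27.0% below. On the CPM scale of all 12 libraries the groups overlapped for Stat5b, Stat6 and Jak2. There the mean of Jak2 was higher in IR, at 386 ± 7.66 CPM in the Ctrl Input and 397 ± 7.10 CPM in the IR Input. The letters GAAANNGAA were in the promoters of Stat2 and Jak3 and not in those of Jak1 and Tyk2, and their part in the changes was not tested. Jak1 was at 183, 185 and 193 CPM in Ctrl and 221, 211 and 208 CPM in IR (0.11 ± 0.04, edgeR adjusted p = 0.00949), and did not pass without replicate 1 (0.08) or replicate 2 (0.10). Tyk2, the other kinase of the type I interferon receptor, was at 0.06 ± 0.04 and was not called.

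Stat5a fell by 0.34 ± 0.06 on the log2 scale (edgeR adjusted p = 2.10e-05), from 45.3 ± 3.20 to 37.7 ± 1.21 CPM. Stat6 fell by 0.10 ± 0.04 (edgeR adjusted p = 0.0296), and did not pass without replicate 2 (-0.08) or replicate 3 (-0.09). Neither fall passed when all 12 libraries shared 1 fit, at -0.26 for Stat5a and -0.02 for Stat6, a fit in which the median of all genes was 0.10. Stat3 (-0.04 ± 0.04), Stat5b (-0.09 ± 0.04) and Jak2 (-0.04 ± 0.03) were not called. Ythdf2 was called lower with IR in the Input (-0.25 ± 0.05, edgeR adjusted p = 2.97e-04) and in the IP (-0.38 ± 0.11, edgeR adjusted p = 0.0275).

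Cell type markers moved in the same libraries. The summed level of 6 neutrophil markers was 5829 to 6642 CPM in the Ctrl Inputs and 8299 to 8947 CPM in the IR Inputs, with 4 of 6 called higher, and 0 of 6 under 1 CPM. The 6 macrophage markers summed to 202 to 206 CPM and 171 to 177 CPM. Of these, 3 were called higher (C1qa, C1qb and C1qc) and 3 lower (Adgre1, Mrc1 and Apoe). Mrc1, at a mean of 126 and 96.8 CPM, made up the largest part of these sums. The 6 dendritic cell markers summed to 227 to 233 CPM and 270 to 280 CPM, with 2 called higher and 2 lower (Flt3 and Zbtb46). The 5 B cell markers summed to 22.7 to 23.95 CPM and 32.8 to 36.1 CPM, with 2 called higher and 2 lower (Cd79a and Cd79b). The 8 myeloid markers summed to 4934 to 5070 CPM and 6088 to 6220 CPM, with 4 called higher and 2 lower. The part of these cells in the changes of the JAK and STAT genes was not tested.

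In the IP fraction none of the members passed between IR and Ctrl, 0 in either direction with edgeR and with DESeq2. Of 19255 genes, 6.12% were called higher and 9.85% lower with edgeR, and 9.15% and 10.6% with DESeq2. At an unadjusted p under 0.05, which 28.8% of all genes reached in either direction, there were 4, Stat5a, Stat5b, Jak1 and Jak3, all at higher values in IR. Stat5a was at 0.45 ± 0.17 (edgeR adjusted p = 0.0868), Jak3 at 0.37 ± 0.16, Stat5b at 0.25 ± 0.10 and Jak1 at 0.19 ± 0.08, while Stat2 was at -0.13 ± 0.09. These 4 passed when all 12 libraries shared 1 fit, in which 10.3% of all genes were called higher, and Stat5a passed without replicate 3 (0.64).

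**Figure D3:**
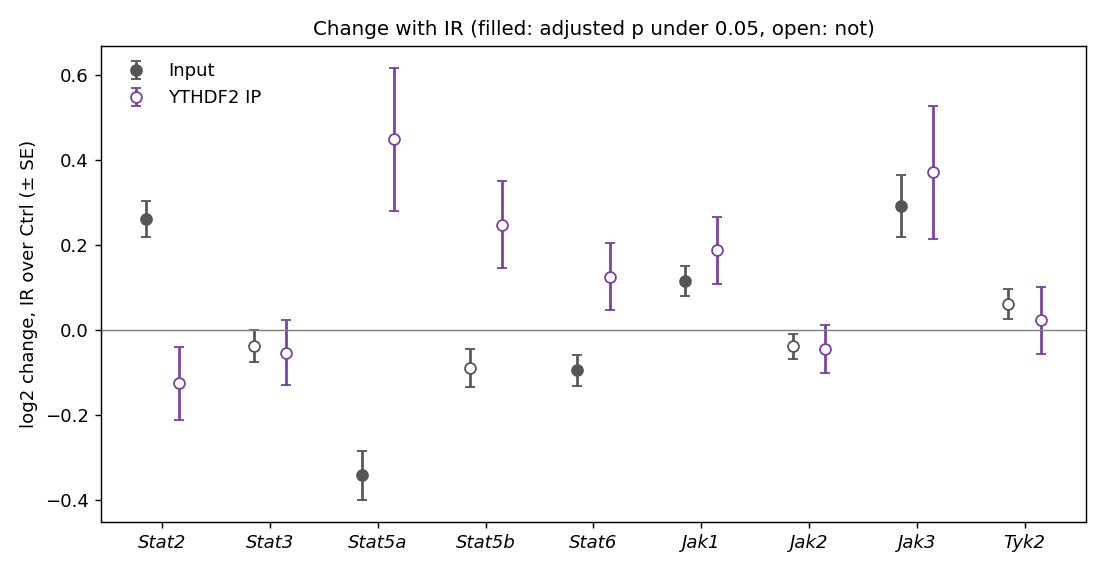
log2 change of IR over Ctrl (vertical axis, ± SE) in the Input (grey) and the YTHDF2 IP (purple) for the 9 genes; filled points passed an edgeR adjusted p of 0.05. Filled points are Stat2, Jak1 and Jak3 above 0 and Stat5a and Stat6 below 0, all in the Input.

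The genes around the kinases and STATs were taken from lists of 37 receptor chains, 19 negative regulators and 23 partners and common STAT target genes. Of these 79 genes 74 were tested in Ctrl, with 32 higher and 32 lower in the IP (34.1% and 34.6% over all genes) and a median log2 change of -0.03. Whether they differ from the 9 members was not tested. Among receptors 15 of 33 were higher and 11 lower, among negative regulators 10 of 19 were higher and 8 lower, and among partners and targets 7 of 22 were higher and 13 lower.

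The receptors with large ratios in Ctrl were Il6ra, the interleukin 6 receptor (110 ± 3.75 CPM in the Input and 632 ± 11.6 CPM in the IP, log2 change 2.65 ± 0.04), Il7r (2.57 ± 0.06) and Il2ra (1.98 ± 0.07). Among negative regulators Pias4, a SUMO ligase that restrains STATs, was at 1.92 ± 0.04 and Socs4 at 1.60 ± 0.05, while Ptprc, the CD45 phosphatase, was at -1.59 ± 0.05. Crebbp, a histone acetyltransferase recruited by STATs, was at 2.31 ± 0.04. The target genes Chil3 (-2.76 ± 0.04) and Il1rn (-1.59 ± 0.07) were lower in the IP. All of these passed the edgeR test, with an adjusted p of at most 1.03e-12.

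**Figure D4:**
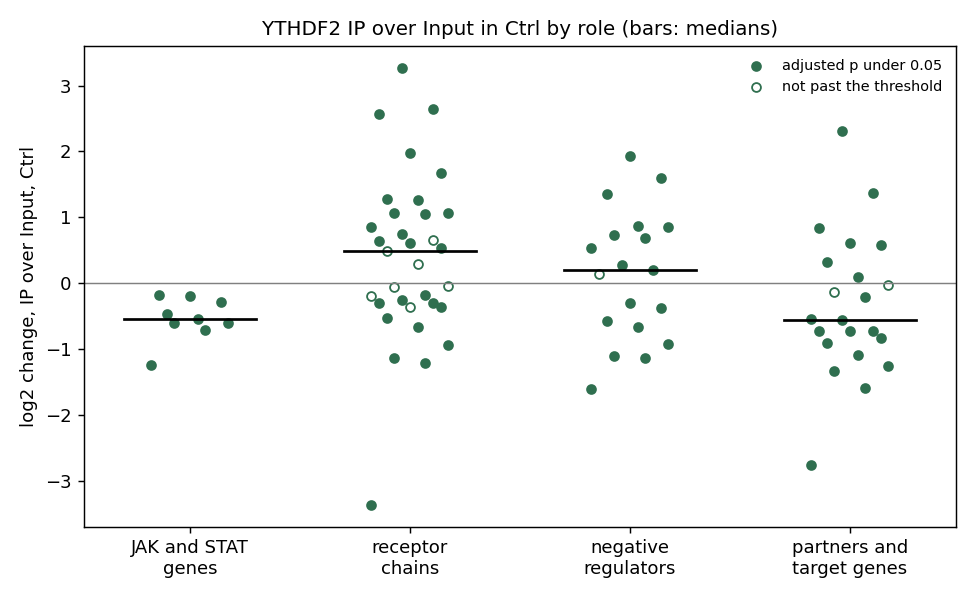
log2 change of IP over Input in Ctrl (vertical axis) for the 9 JAK and STAT genes, 33 receptor chains, 19 negative regulators and 22 partners and target genes; filled points passed an edgeR adjusted p of 0.05 and bars are medians. The 9 members lie between -1.23 and -0.18, while each other list has genes on both sides of 0.

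In IR 26 of 75 tested genes of these lists were higher in the IP and 31 lower, beside 32.1% and 30.4% of all genes. In the interaction 6.28% of all genes were higher and 13.9% lower. With library size alone these shares were 13.8% and 4.23%, so counts of calls depend on the scaling. Of the 78 listed genes tested there, 7 were higher and 27 lower in the main fit. Ifnar2, a chain of the type I interferon receptor that signals to Stat2, was among the lower ones: it was at 54.3 ± 1.23 and 121 ± 1.86 CPM in the Ctrl Input and IP and at 63.7 ± 1.95 and 84.7 ± 1.94 CPM in IR (-0.73 ± 0.08, edgeR adjusted p = 1.79e-06). In the Input 32 of 74 were higher in IR and 15 lower, beside 21.0% and 23.9% of all genes. In the IP fraction 8 of 76 were higher and 12 lower, beside 6.12% and 9.85% of all genes. By list, 15 of 33 receptors were higher in the IR Input and 6 lower, and 8 of 19 negative regulators higher and 5 lower. Of 22 partners and targets 9 were higher there and 4 lower, with a median log2 change of 0.12. In the Input Il21r, a receptor that uses Jak1 and Jak3, rose by 0.98 ± 0.04 and Il10rb by 0.34 ± 0.04. Socs1, which inhibits JAKs, rose by 0.38 ± 0.05 and Pias3 by 0.35 ± 0.07. Lifr fell by 1.10 ± 0.20, Cbl fell by 0.54 ± 0.03, Myc fell by 1.13 ± 0.06, Mrc1 fell by 0.46 ± 0.04 and Fcgr1 fell by 0.44 ± 0.06, with an edgeR adjusted p of at most 6.31e-05 for all 9 genes.

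Transcript features were described on the longest coding transcript of each gene. GGACT, the commonest m6A consensus, occurred 3 to 10 times in the members, against a median of 3 over 14507 coding genes. Per kilobase it was most frequent in Jak3, at 2.49, above 94.9% of coding genes, and least frequent in Stat3, at 0.497. Stat5a (0.772) and Stat2 (1.14), the genes whose ratio changed with IR, lay on either side of the median of 1.06 per kb. The presence of these letters does not show methylation.

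Over the 12 libraries the genes with the profile most like that of Stat5a, by the root mean square distance of log2 CPM centred on each gene's mean among 11727 genes, were Olr1 (0.098), Usp12 (0.12) and Spidr (0.14), where Stat5a itself varied by 0.56 around its mean. For Stat2, which varied by 0.31, they were Csf3r (0.064), Cd200r1 (0.065) and Ric8a (0.065). All genes were read from the same libraries, which differ in depth and fraction, so these distances are a description.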

How the data were processed

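RIP-seq libraries of CD11b+ cells were analysed in 4 groups of 3. Per the study's methods and the submitters' processing notes, reads were trimmed with Trimmomatic 0.39 and aligned to mm10 with HISAT, and the authors counted reads per GENCODE gene with HTSeq; the deposited values are raw counts. The labels describe mRNA selection before RIP, while the methods take Input RNA from the lysate. Counts were tested with edgeR 4.0.16 (quasi-likelihood test, TMM, a minimum of 10 counts in 3 or more libraries of a comparison, Benjamini-Hochberg threshold 0.05) in R 4.3.3. Alternatives included DESeq2 1.42.0 and a replicate block. For IP against Input and the interaction it pairs IP and Input of the same number, taken as the same pool. Between IR and Ctrl it pairs pools of the same number, which are different mice. Correlations of the deviations of IP and Input of the same number were -0.02 to 0.04. Reads on no gene were left out. Scripts were tested on simulated data. Named pathway genes were the 3 with the largest changes per list and comparison among called genes with at least 100 mean counts and groups that do not overlap. Members and lists were chosen with earlier results of these data known. Counts on genes per library are given with the results; the floor of 3 counts covers counting error only. Sequence features used the longest coding transcript in place of merged exons.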

Additional observations from a re-analysis of the deposited data

Results flagged for a closer look

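The change of IP against Input between Ctrl and IR was tested as an interaction with edgeR. It differed between the conditions for 2 of the 9 members, Stat2 (-0.48) and Stat5a (0.70). Over all genes 6.28% were called higher and 13.9% lower. Stat2 did not pass with library size alone (-0.16), and Stat5a did not pass without replicate 1 (0.69) or 2 (0.60). Among the pathway genes named for this comparison the change differed for Lifr (1.65), Il6ra (-0.77), Ifnar2 (-0.73), Pias4 (-0.63), Ptpn6 (-0.47), Cbl (0.42), Osm (-0.71), Fcgr1 (-0.55) and Mrc1 (0.50). Lifr was below 6 CPM on average in every group. Scaling by library size alone left Ptpn6 at -0.16, Osm at -0.39 and Fcgr1 at -0.24, none of them past the threshold. Groups of 3 were too small for a test of outlying libraries.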

How the results depend on the processing

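Of 531 values of single members under alternatives, 437 kept their direction and their side of the threshold, 44 no longer passed, 22 newly passed and 28 turned sign; none of the sign changes was in IP against Input within Ctrl or IR. In the interaction, library size alone gave 0.21 for Stat3, 0.30 for Jak1, 0.22 for Jak2, 0.30 for Jak3, 0.18 for Tyk2 and 0.092 for Ythdf2. The main interaction of Ythdf2 was -0.22 (edgeR adjusted p = 0.306). DESeq2 size factors gave 0.043 for Jak1 and 0.049 for Jak3, as did the DESeq2 test (0.043 and 0.049). Genes with at least 10 counts in every library gave 0.0066 for Stat3, 0.095 for Jak1, 0.015 for Jak2 and 0.10 for Jak3. Protein-coding genes alone gave 0.064 for Jak1 and 0.069 for Jak3. Without each replicate in turn, the interaction ran from -0.046 to 0.11 for Jak1 and from -0.16 to 0.14 for Jak3. For IR against Ctrl in Input, all 12 libraries in 1 fit gave 0.041 for Stat3 and 0.039 for Jak2. For IR against Ctrl in IP, library size alone gave 0.079 for Stat2, 0.15 for Stat3 and 0.16 for Jak2, no filter gave -0.012 for Tyk2 and 10 counts in every library gave 0.0061 for Jak2; without each replicate in turn the values ran from -0.090 to 0.040 for Stat3, from -0.074 to 0.0084 for Jak2 and from -0.049 to 0.15 for Tyk2. The causes were not tested.

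Members called lower in IP against Input fell to 1 in Ctrl and 0 in IR when a 2-fold change was also required. Over all genes 18.6% and 16.6% were then called lower. Without each replicate the members called lower were 7 to 8 in both. The share of all genes was then 32.8% to 33.8% in Ctrl and 27.9% to 29.4% in IR. In the interaction, members called higher were 2 with DESeq2 size factors, the DESeq2 test or protein-coding genes alone, 3 with 10 counts in every library, 5 with library size alone and 0 at 2-fold, and 0 to 1 without each replicate; members called lower were 0 with library size alone or at 2-fold. Over all genes, higher calls in the interaction went from 6.28% to 7.21% with DESeq2 size factors and 9.48% with protein-coding genes. They were 11.9% with 10 counts in every library and 13.8% with library size alone. Lower calls went from 13.9% to 4.23% with library size alone. Of 20720 genes, 1761 were called higher in the interaction with the DESeq2 test. At 2-fold 589 of the 20720 genes were called higher and 270 lower. Without each replicate 4.44% to 5.38% of all genes were called higher. In the Input, members called higher were 0 at 2-fold and 2 to 3 without each replicate. Over all genes these shares were 2.03% and 16.6% to 19.4%. Members called lower were 1 with no filter, 0 in the fit of all 12 libraries, 0 at 2-fold and 1 to 2 without each replicate. Over all genes lower calls went from 23.9% to 12.7%, 7.24%, 3.98% and 19.6% to 22.3% under these settings. In the IP, 5 members were called higher with library size alone and 3 with 10 counts in every library. In the fit of all 12 libraries there were 4. Higher calls over all genes went from 6.12% to 13.8%, 9.87% and 10.3% under these 3 settings. Without each replicate 0 to 1 members were called higher, beside 3.31% to 4.42% of all genes. The replicate block left the interaction at -0.48 for Stat2 and 0.68 for Stat5a and changed none of the counts of members called. A prior count of 0.25 moved no ratio per pool by more than its SD.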
